A study of Mus musculus with 16 samples.

Results

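Tubulin genes were followed in the mouse intervertebral disc after deletion of Sox9, a master regulator of cartilage cells. The set holds 9 of the 19505 genes that have a symbol on the arrays. Its members are the beta tubulins Tubb2b, Tubb2a, Tubb3, Tubb4b, Tubb5 and Tubb6, the alpha tubulins Tuba1a and Tuba1b, and Tppp3, a protein that promotes tubulin polymerisation. The genes were listed by symbol, and the probe set with the highest mean over the 16 arrays stands for each gene. All 9 members have 1 probe set. Tubb2b and Tppp3 entered the set because of their knockout and control values in both disc compartments, Tubb2b as the lower and Tppp3 as the higher in the knockout. Their genotype differences are therefore a description and carry no test.

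The arrays measured RNA of the nucleus pulposus (NP), the gel-like core of the disc, and of the annulus fibrosus (AF), the fibrous ring around it, from 8 female mice of 3 to 4 months. Conditional knockout mice (cKO, AcanCreERT2Sox9fl/fl) carry floxed Sox9 and a Cre under control of Acan, which encodes aggrecan, that tamoxifen switches on, and controls (CTR, Sox9fl/fl) carry the floxed Sox9 with no Cre named. The 4 groups are NP cKO, NP CTR, AF cKO and AF CTR with 4 arrays each, and each animal gave its lumbar and caudal discs as 1 pooled NP sample and 1 pooled AF sample. Tamoxifen on 2 consecutive days is named for the cKO mice, collection followed 5 days after the first dose, and the labels do not say whether controls were injected, so drug and genotype cannot be told apart. The Cre acts where Acan is active, so other cells in the tissue can keep Sox9.

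The targeted gene followed the labels. Sox9 signal was 9.69, 9.55, 10.12 and 9.65 in NP cKO replicates 1 to 4, against 16.19, 16.14, 16.79 and 15.95 in NP CTR, and 12.10, 11.43, 12.99 and 12.44 in AF cKO, against 17.25, 17.45, 16.59 and 16.39 in AF CTR. Where its probes lie relative to the deleted part is not known here. Of the 10 nucleus pulposus and notochordal markers measured, 5 passed as higher in NP cKO than in AF cKO (Krt8, Krt18, Krt19, Cd24a and Shh) and 4 of these, all but Shh, in NP CTR against AF CTR. Foxa2 passed as lower in NP in both genotypes, with all group means below the negative controls' highest median, and Car12 in CTR mice (4.93 in NP CTR and 8.50 in AF CTR). Krt19, a notochordal keratin, averaged 18.18 in NP cKO and 16.57 in AF cKO, and 18.09 in NP CTR and 15.92 in AF CTR. Of the 12 annulus and tendon markers, 11 passed as lower in NP in cKO mice and 10 in CTR mice. The type I collagen chain Col1a1 averaged 9.35 in NP cKO and 17.30 in AF cKO, and 9.12 in NP CTR and 17.22 in AF CTR. Signals are log2 values, the negative control probe sets had medians of 6.14 to 6.59 per array, and the correlation across probe sets was 0.963 to 0.983 between arrays of a group. Markers of other tissues stood high on single arrays. Skeletal muscle markers averaged 10.40 and 9.63 on AF cKO replicates 2 and 4 and at most 7.42 on any other array, osteoclast markers 10.31 on AF cKO replicate 3 and 9.18 on AF CTR replicate 1 and at most 7.62 elsewhere, and the annulus and tendon markers 9.56 on NP cKO replicate 4 and at most 8.41 on the other NP arrays. In tissue RNA, fewer cells of a type and less RNA per cell cannot be told apart.

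Microtubules are hollow polymers of alpha and beta tubulin dimers that carry cargo, shape cells and form the mitotic spindle and cilia. Mammals have several genes for each subunit, whose proteins differ mainly at their tails and whose expression differs between tissues. Tubb2b, Tubb3 and Tuba1a are best known from developing neurons, while Tubb5, Tubb4b and Tuba1b are widely expressed. In mouse tendon, Tppp3 marks cells of the sheath. Tubb2a and Tubb2b are neighbours on chromosome 13 with 1 noncoding gene between them, and Tuba1a and Tuba1b are adjacent on chromosome 15. The proteins of such pairs are nearly identical, and signal shared between the probe sets of related tubulins was not tested. Levels are compared below within a gene and not between genes.

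**Figure D1:**
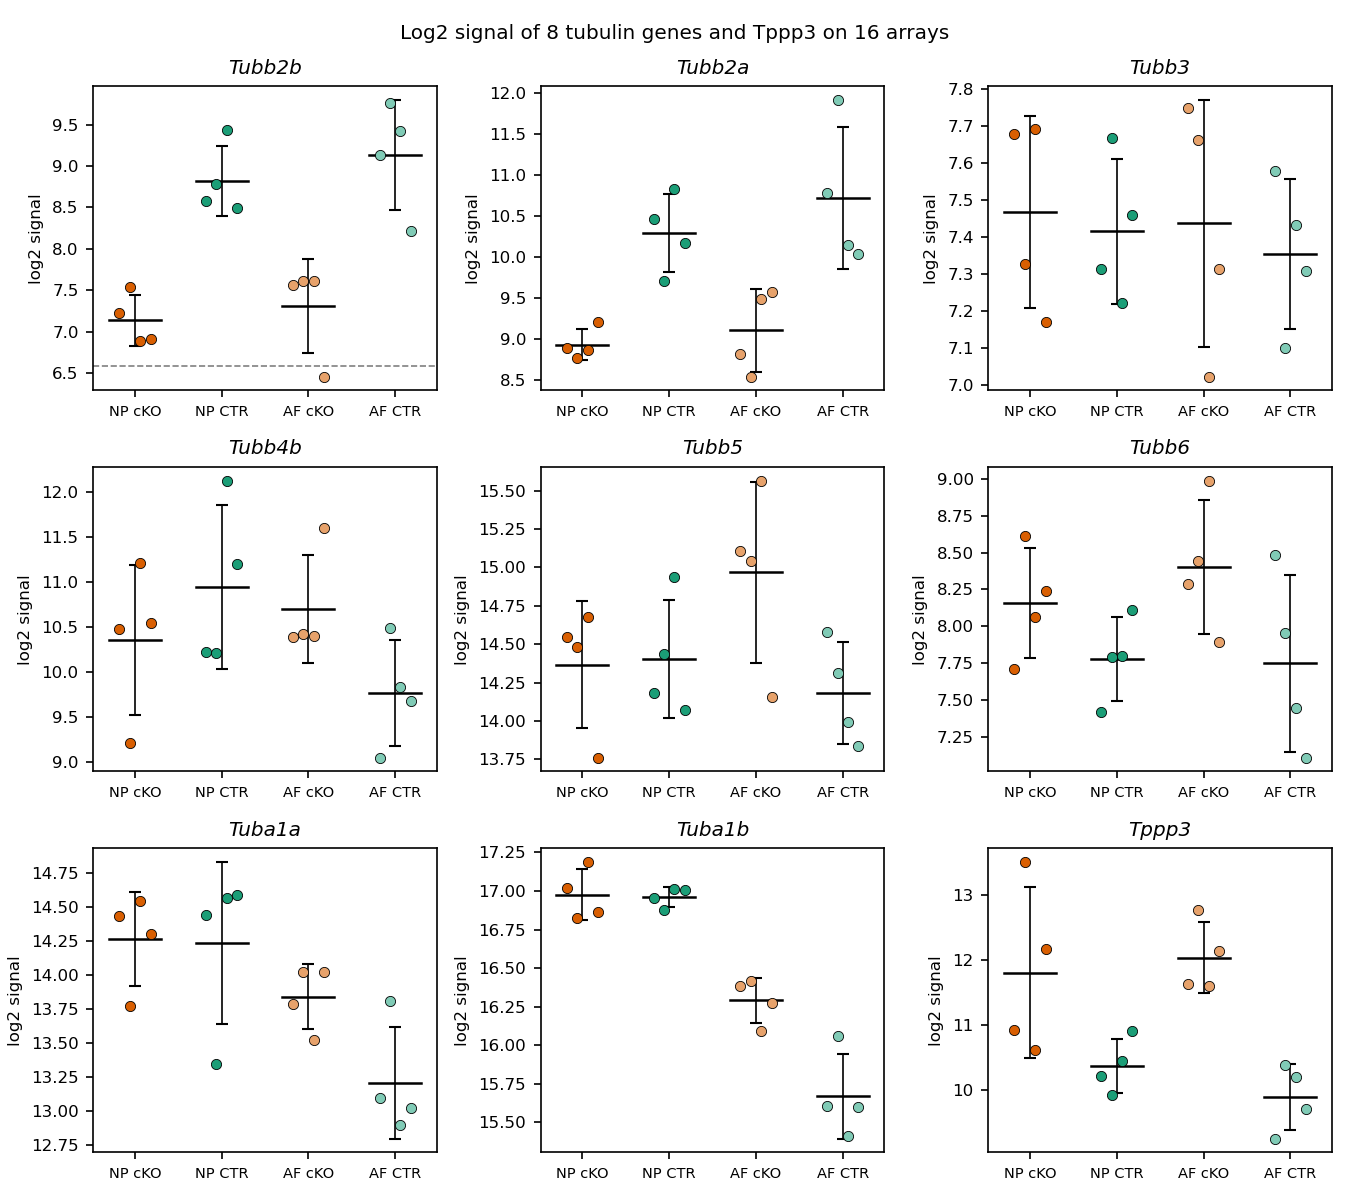
Log2 signal of each gene (vertical axis, own scale per panel) on the 16 arrays, by group (horizontal axis). Points are arrays, the horizontal line is the group mean and the bar its SD (n = 4); the dashed line in the Tubb2b panel is the highest median of the negative controls, 6.59. Tubb2b and Tubb2a lie lower in cKO than in CTR in both compartments, Tppp3 lies higher in AF cKO than in AF CTR without overlap, and Tuba1b lies higher in NP than in AF.

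Tubb2b was the member with the lower signal by which the set was chosen. Its log2 signal was 7.23, 7.53, 6.89 and 6.91 in NP cKO replicates 1 to 4, against 8.58, 8.78, 9.43 and 8.50 in NP CTR. The AF arrays gave 7.57, 7.61, 7.61 and 6.46 in cKO, against 9.14, 9.76, 9.42 and 8.21 in CTR. Every cKO array lay below every CTR array of its compartment. The group means differed by -1.68 (SE 0.32) in NP, a 3.22-fold lower signal, and by -1.82 (SE 0.32) in AF, a 3.54-fold lower signal. Groups that did not overlap made up 2.93% of the 22206 probe sets for NP and 4.33% for AF. The value of AF cKO replicate 4, 6.46, lay below the highest negative control median of 6.59, so that array gives only an upper limit. The AF difference was -1.55 without AF cKO replicates 2 and 4, which held the muscle signal, and -1.92 without AF CTR replicate 1 and AF cKO replicate 3, which held the osteoclast signal. Leaving out any single NP array gave an NP difference of -1.82 to -1.48. Control NP and control AF, a comparison the choice of Tubb2b did not use, averaged 8.82 ± 0.43 and 9.13 ± 0.67 (SD, n = 4 each) and did not pass the test (difference -0.31, 95% interval -0.99 to 0.37, adjusted p = 0.544). In cKO mice the means were 7.14 ± 0.31 in NP and 7.31 ± 0.57 in AF, a difference of -0.17 (95% interval -0.85 to 0.51, adjusted p = 0.726). The order of the levels was AF CTR, NP CTR, AF cKO and NP cKO, and the arrays of the neighbours within a genotype overlapped.

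Tubb2a, the neighbouring beta tubulin gene, was not picked by its genotype values, as Tubb2b and Tppp3 were. All members were, however, chosen with earlier results of these data known, and signal shared with the Tubb2b probe set was not tested. Tubb2a had a log2 signal of 8.89, 8.77, 8.87 and 9.21 in NP cKO replicates 1 to 4, against 10.46, 9.71, 10.82 and 10.16 in NP CTR. The AF values were 8.82, 8.54, 9.49 and 9.58 in cKO, against 10.78, 11.91, 10.15 and 10.03 in CTR. As for Tubb2b, no cKO array reached the lowest CTR array of its compartment. The differences of -1.36 (SE 0.35, 2.56-fold lower) in NP and of -1.61 (SE 0.35, 3.06-fold lower) in AF had unadjusted p-values of 0.00104 and 2.0e-04 in limma. Neither passed the Benjamini-Hochberg adjustment over all probe sets (adjusted p = 0.295 in NP and 0.104 in AF). Averaged over both compartments, a contrast chosen after the values were seen, Tubb2a fell by 1.48 on the log2 scale (SE 0.25, 2.80-fold lower, limma adjusted p = 0.00782). It was the only one of the 7 tested members to pass in this average, in which 0.311% of all probe sets passed, 0.275% as lower in cKO and 0.0360% as higher. The call held in each of 25 alternative settings, with an adjusted p from 0.00229 to 0.0247. These settings say little about the pairing, since the NP and AF arrays of a mouse count as separate arrays in this average. The setting with the animal as a random block used a single correlation of 0.0353, shared by all probe sets. No setting averaged the arrays of a mouse first. Of the 14 cartilage markers, 11 had a lower mean in cKO in the average of both compartments and 4 passed (Acan, Hapln1, Ucma and Snorc, all lower), with a median of -1.13 over the list beside -0.02 over all probe sets. The mean of the list was 7.87, 7.61, 7.96 and 8.90 in NP cKO, against 8.37, 8.51, 8.60 and 8.30 in NP CTR, and 10.98, 10.75, 11.35 and 10.41 in AF cKO, against 13.80, 12.82, 11.33 and 12.02 in AF CTR. The part of these markers in the Tubb2a and Tubb2b values was not tested. In AF alone Tubb2a also passed without AF cKO replicate 4 (-1.77, adjusted p = 0.0412) and without AF CTR replicate 3 (-1.80, adjusted p = 0.0496). Across all 20 AF alternatives, however, the limma adjusted p ran from 0.0216 to 0.434. Leaving out single AF arrays gave differences of -1.84 to -1.21. For Tubb2a in NP, the limma adjusted p ran from 0.0604 to 0.813 over 18 alternatives.

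The difference between the changes in NP and AF was 0.25 for Tubb2a (SE 0.49, 95% interval -0.78 to 1.29, adjusted p = 0.923). Control NP averaged 10.29 ± 0.47 and control AF 10.72 ± 0.86 (SD, n = 4 each), which did not pass (difference -0.43, adjusted p = 0.424). The promoter window of Tubb2a is shown because it is the tested member that fell. It spans 250 bases before to 50 bases after the annotated start in RefSeq, on the minus strand of chr13:34077959-34078258 (GRCm38.p6), and is printed 5′ to 3′ with GC boxes (GGGCGG, either strand) and a TATA box (TATAAA) in capitals.
Tubb2a: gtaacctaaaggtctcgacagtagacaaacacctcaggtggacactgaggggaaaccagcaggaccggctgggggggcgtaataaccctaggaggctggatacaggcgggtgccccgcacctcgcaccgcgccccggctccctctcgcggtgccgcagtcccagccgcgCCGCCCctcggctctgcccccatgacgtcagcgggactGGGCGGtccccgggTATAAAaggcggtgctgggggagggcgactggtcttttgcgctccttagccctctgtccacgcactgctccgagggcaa
Its TATA box begins 29 bases before the start, and 13.6% of 32851 RefSeq promoter windows hold these letters on either strand. Both GC boxes lie upstream of it, and 35.7% of windows hold 1 or more. The Sox-type letters AACAAT and ACAAAG were not found in this window on either strand, against 10.7% and 18.7% of all windows.

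Of the 9 members, 6 matched the RefSeq promoter table (Tubb2a, Tubb3, Tubb4b, Tubb5, Tuba1a and Tuba1b), and Tubb2b, Tubb6 and Tppp3 did not. All 6 windows held GGGCGG. Only the Tubb4b and Tubb5 windows held Sox-type letters, Tubb4b AACAAT and Tubb5 both kinds. No motif matches overlapped in these windows, and a match of letters says nothing about binding here.

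Tppp3 was the member with the higher signal by which the set was chosen. Its log2 signal was 10.93, 13.52, 10.62 and 12.17 in NP cKO replicates 1 to 4, against 10.21, 9.93, 10.44 and 10.91 in NP CTR. In AF it was 11.64, 12.77, 11.61 and 12.15 in cKO, against 9.25, 10.39, 10.21 and 9.71 in CTR. The NP groups overlapped, since cKO replicate 3 lay below CTR replicate 4, and the AF groups did not. The means differed by 1.44 (SE 0.47, 2.71-fold) in NP and by 2.15 (SE 0.47, 4.44-fold) in AF. Without NP cKO replicate 2 the NP difference was 0.87 (SE 0.38), so its size rests in part on that array, while the AF difference stayed between 1.73 and 2.32 in every setting that left out AF arrays. The next highest NP cKO array, replicate 4, held annulus and tendon markers at a mean of 9.56, beside at most 8.41 on the other NP arrays. That mean was 7.77 on replicate 2, which had the highest Tppp3, and 8.41 on replicate 3, which had the lowest Tppp3 in NP cKO. Tppp3 was 10.93 and 10.62 on NP cKO replicates 1 and 3, near the top of the NP CTR values of 9.93 to 10.91. The part of the annulus and tendon signal in the Tppp3 values was not tested. The spread within NP cKO, with an SD of 1.32, was wider than in any other group of the 9 genes. NP minus AF did not pass the test in either genotype (cKO -0.23, 95% interval -1.22 to 0.75, adjusted p = 0.748; CTR 0.48, 95% interval -0.50 to 1.47, adjusted p = 0.511).

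The cKO array with the highest Tppp3 signal in each compartment, replicate 2, was also the highest in both compartments for 3 of the 8 smooth muscle markers, Acta2, Tagln and Smtn, and not for Myh11, Cnn1, Myl9, Lmod1 or Des. Acta2, smooth muscle actin, had 14.45, 16.66, 13.62 and 13.32 in NP cKO, against 12.80, 12.72, 12.95 and 12.15 in NP CTR, and 14.15, 14.65, 12.13 and 12.00 in AF cKO, against 11.05, 11.57, 11.69 and 11.22 in AF CTR. The mean of the 8 smooth muscle markers ran from 7.72 to 8.92 in NP cKO, against 7.58 to 7.96 in NP CTR, and from 7.79 to 8.82 in AF cKO, against 7.47 to 7.82 in AF CTR. In each compartment 5 of the 8 markers had a higher and 3 a lower mean in cKO. None of the 8 passed as higher in cKO than in CTR in either compartment, and Myh11, smooth muscle myosin, fell in NP, with means of 7.12 in NP cKO and 8.78 in NP CTR (difference -1.66, limma adjusted p = 0.00875). The part of these markers in the Tppp3 difference was not tested. Of the 8 fibroblast and tendon sheath markers, 2 lay above the negative controls on average, and their list mean stayed at 4.94 to 5.39 in NP cKO, against 4.87 to 5.17 in NP CTR, below the negative control medians on all 8 NP arrays. In AF that list mean was 7.52 to 8.28 in cKO, against 6.62 to 7.69 in CTR.

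**Figure D2:**
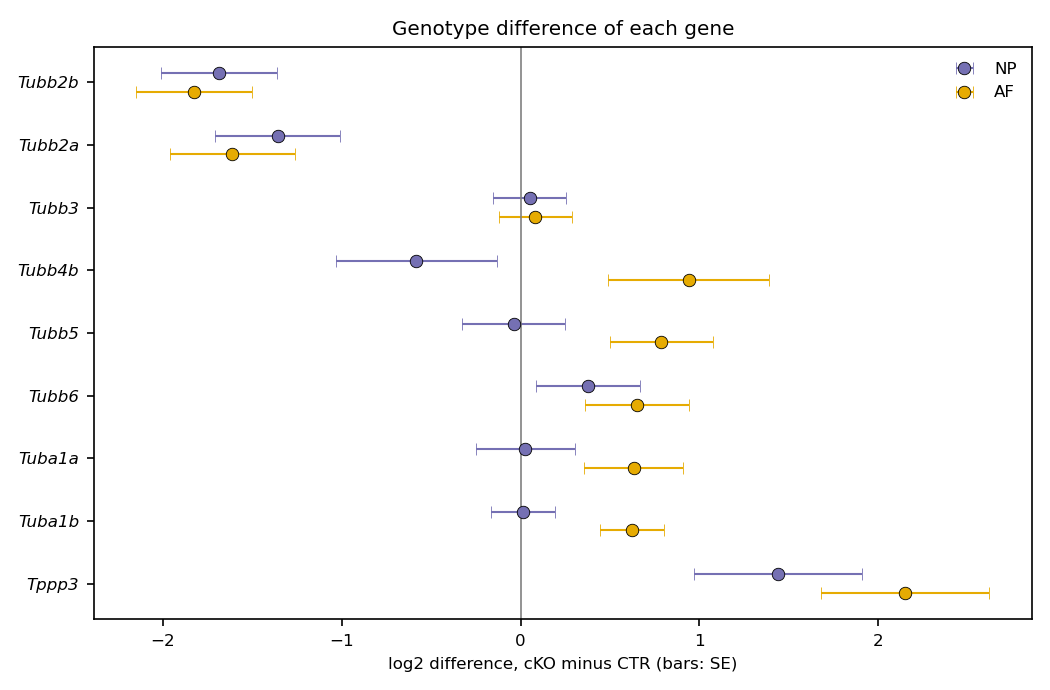
Difference of group means, cKO minus CTR, on the log2 scale (horizontal axis) for each gene (vertical axis), in NP (purple, upper point) and AF (yellow, lower point). Bars are the SE of the limma fit. Tubb2b and Tubb2a lie left of 0 in both compartments and Tppp3 right of 0, while Tubb4b, Tubb5, Tuba1a and Tuba1b lie near or left of 0 in NP and right of 0 in AF.

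None of the 7 tested members passed at an adjusted p under 0.05 in limma for cKO against CTR in a single compartment, where 0.122% of all probe sets passed in NP and 0.0991% in AF. At an unadjusted p under 0.05, 1 of 7 passed in NP (Tubb2a, with 4.58% of all probe sets) and 5 of 7 in AF (10.6% of all probe sets). The 5 in AF were Tubb2a on the lower side and Tubb5, Tubb6, Tuba1a and Tuba1b on the higher side. The median difference of the 7 was 0.01 in NP, beside 0.00 over all probe sets, and 0.63 in AF, beside -0.03. At the thresholds named in the labels, an unadjusted p under 0.05 with a fold of at least 1.75, Tubb2a was the 1 tested member to pass in each compartment, beside 1.18% of all probe sets in NP and 3.49% in AF.

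Tuba1b, a widely expressed alpha tubulin, had a log2 signal of 16.39, 16.42, 16.09 and 16.27 in AF cKO, against 15.61, 16.06, 15.41 and 15.60 in AF CTR. These groups did not overlap. The difference of 0.62 (SE 0.18, 1.54-fold, unadjusted p = 0.00239) did not pass the adjustment (adjusted p = 0.222). In NP the Tuba1b signal was 17.02, 16.83, 17.19 and 16.87 in cKO, against 16.95, 16.88, 17.01 and 17.01 in CTR, with a difference of 0.01 (SE 0.18, 95% interval -0.36 to 0.38). Tuba1a, its neighbour, had 13.79, 14.02, 13.53 and 14.02 in AF cKO, against 13.10, 13.81, 12.90 and 13.02 in AF CTR, which overlapped through CTR replicate 2 (difference 0.63, SE 0.28, adjusted p = 0.441). Its NP groups differed by 0.03 (SE 0.28, 95% interval -0.56 to 0.61).

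Tubb5, a widely expressed beta tubulin, had a log2 signal of 15.11, 15.04, 15.56 and 14.15 in AF cKO, against 14.58, 14.31, 13.99 and 13.84 in AF CTR. All but replicate 4 of the cKO arrays lay above all CTR arrays (difference 0.79, SE 0.29, adjusted p = 0.351). Its NP values were 14.55, 14.48, 14.68 and 13.76 in cKO, against 14.18, 14.44, 14.94 and 14.07 in CTR, a difference of -0.04 (SE 0.29, 95% interval -0.64 to 0.57). Tubb6, another beta tubulin, had 8.29, 8.44, 8.99 and 7.89 in AF cKO, against 8.49, 7.95, 7.45 and 7.11 in AF CTR, with overlapping groups (difference 0.65, SE 0.29, adjusted p = 0.444). In NP it had 7.71, 8.61, 8.06 and 8.24 in cKO, against 7.42, 7.79, 7.80 and 8.11 in CTR (difference 0.38, SE 0.29, limma unadjusted p = 0.209).

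Markers of other cells differed between the same AF arrays. The mean of the 11 proliferation markers was 7.01, 7.55, 8.03 and 6.42 in AF cKO, against 7.11, 6.07, 6.31 and 6.20 in AF CTR. The array with the highest Tubb5 and Tubb6 signal among the AF cKO arrays, replicate 3, had the highest proliferation mean, and replicate 4, with the lowest of both genes, had the lowest. Tuba1a and Tuba1b, by contrast, had their lowest AF cKO values on replicate 3, 13.53 and 16.09. In NP cKO, Tubb5 was highest on replicate 3 (14.68), where the proliferation mean was lowest (5.57). There Tubb6 was highest on replicate 2 (8.61), which had the highest proliferation mean (6.69). The 11 neutrophil markers, genes of marrow and blood, averaged 12.34, 12.24, 13.39 and 9.81 in AF cKO, against 11.84, 8.16, 6.53 and 7.40 in AF CTR. All 11 neutrophil markers and 10 of the 11 proliferation markers were higher in AF cKO, with none passing the test in either list (median difference 3.17 and 0.72). The part of these cells in the tubulin values was not tested. Without AF cKO replicates 2 and 4, which held the muscle signal, the AF difference was 1.15 for Tubb5 (adjusted p = 0.180), 0.89 for Tubb6, 0.57 for Tuba1b and 0.45 for Tuba1a. Without AF CTR replicate 1 and AF cKO replicate 3, it was 0.72 for Tubb5 (adjusted p = 0.509), 0.70 for Tubb6, 0.67 for Tuba1b and 0.70 for Tuba1a. The AF arrays kept in that fit still had neutrophil means of 12.34, 12.24 and 9.81 in cKO, against 8.16, 6.53 and 7.40 in CTR. Leaving those arrays out therefore did not remove the neutrophil difference.

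**Figure D3:**
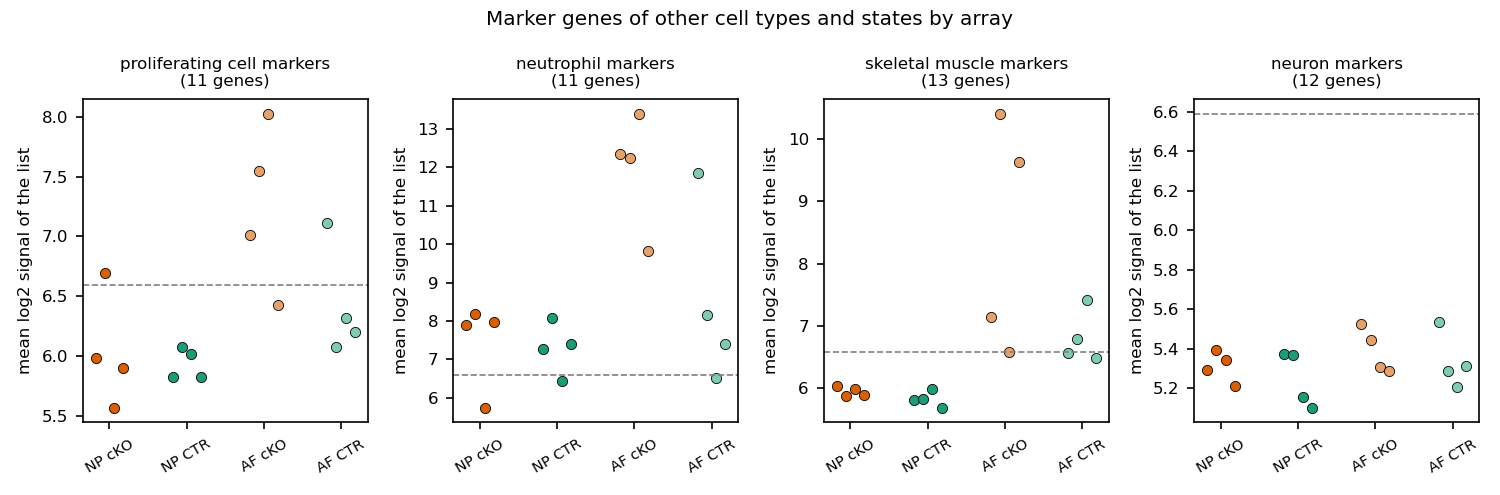
Mean log2 signal of 4 marker lists (vertical axis, own scale per panel) on each array (points), by group (horizontal axis). The dashed line is the highest median of the negative controls, 6.59. Proliferation markers are highest on AF cKO replicates 1 to 3 and AF CTR replicate 1, neutrophil markers on the AF cKO arrays and AF CTR replicate 1, skeletal muscle markers on AF cKO replicates 2 and 4, and neuron markers lie below the line on all 16 arrays.

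Tubb4b, a beta tubulin also used in cilia, had the opposite sign in the compartments. Its log2 signal was 10.47, 9.21, 11.20 and 10.54 in NP cKO, against 10.22, 10.21, 12.12 and 11.20 in NP CTR, with a difference of -0.58 (SE 0.45, limma unadjusted p = 0.210). In AF it was 10.38, 10.41, 10.40 and 11.60 in cKO, against 9.04, 10.48, 9.83 and 9.67 in CTR, with a difference of 0.94 (SE 0.45, adjusted p = 0.470). The groups overlapped in both compartments. The change in NP minus the change in AF was -1.52 (SE 0.63, unadjusted p = 0.0271), which did not pass (adjusted p = 0.732). None of the 7 tested members passed for this difference between compartments in limma, beside 0% of all probe sets. At an unadjusted p under 0.05, 2 of 7 did, Tubb4b and Tuba1b, beside 6.74% of all probe sets, and Tuba1b had a difference of -0.61 (SE 0.25, adjusted p = 0.732).

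Tubb3, the beta tubulin used as a label of neurons, stayed in a narrow range. It had 7.68, 7.33, 7.69 and 7.17 in NP cKO, against 7.31, 7.67, 7.22 and 7.46 in NP CTR, and 7.75, 7.66, 7.02 and 7.31 in AF cKO, against 7.58, 7.10, 7.43 and 7.31 in AF CTR. The genotype differences were 0.05 in NP (SE 0.20, 95% interval -0.38 to 0.48) and 0.08 in AF (SE 0.20, 95% interval -0.35 to 0.51). These Tubb3 values lay little above the highest negative control median of 6.59, which limits what its narrow range can show. Of the 12 other neuron markers listed, such as the neurofilament gene Nefl and the synaptic gene Snap25, 0 had a mean over the 16 arrays above the negative controls. In at least 1 group, 2 of them had a group mean above that limit. The list mean lay between 5.10 and 5.54 on all arrays.

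Between compartments, Tuba1a and Tuba1b passed in CTR mice and Tuba1b in cKO mice, shares near or below those of all probe sets. Of all 8 alpha tubulins measured, 2 passed as higher and 0 as lower in NP in CTR mice. In cKO mice 2 of these 8 passed as higher and 2 as lower in NP. Of the 9 members, 2 were higher in NP CTR than in AF CTR at an adjusted p under 0.05 in limma and 0 were lower, beside 20.1% of all probe sets that passed, 9.96% as higher and 10.1% as lower. Tuba1b was higher by 1.29 (SE 0.18, 2.45-fold, adjusted p = 4.7e-05), with 16.96 ± 0.06 in NP CTR and 15.67 ± 0.27 in AF CTR (SD, n = 4 each). It was higher in NP in 4 of 4 CTR mice, by 0.82 to 1.60. Tuba1a was higher by 1.03 (SE 0.28, 2.04-fold, adjusted p = 0.0133), with 14.44, 13.35, 14.57 and 14.59 in NP CTR, against 13.10, 13.81, 12.90 and 13.02 in AF CTR. These groups overlapped, since NP CTR replicate 2 lay below AF CTR replicate 2, and NP was higher in 3 of 4 CTR mice. The share of members without overlap, 1 of 9, compares with 22.6% of all probe sets. Array medians in NP CTR lay 0.13 below those in AF CTR, and both calls held with each array centred on its median.

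In cKO mice, 1 of the 9 members passed as higher in NP and 0 as lower, beside 25.9% of all probe sets that passed, 13.3% as higher and 12.6% as lower. Tuba1b averaged 16.97 ± 0.16 in NP cKO and 16.29 ± 0.15 in AF cKO (SD, n = 4 each), a difference of 0.68 (SE 0.18, 1.60-fold, adjusted p = 0.00919), and was higher in NP in 4 of 4 cKO mice. The groups did not overlap, as in 26.8% of all probe sets. Its fold is below the 1.75 named in the labels. Tuba1a differed by 0.42 (SE 0.28, 95% interval -0.16 to 1.01, adjusted p = 0.273). The NP and AF differences in cKO and in CTR use the arrays of the genotype comparisons, so they are not separate evidence about the AF values above.

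**Figure D4:**
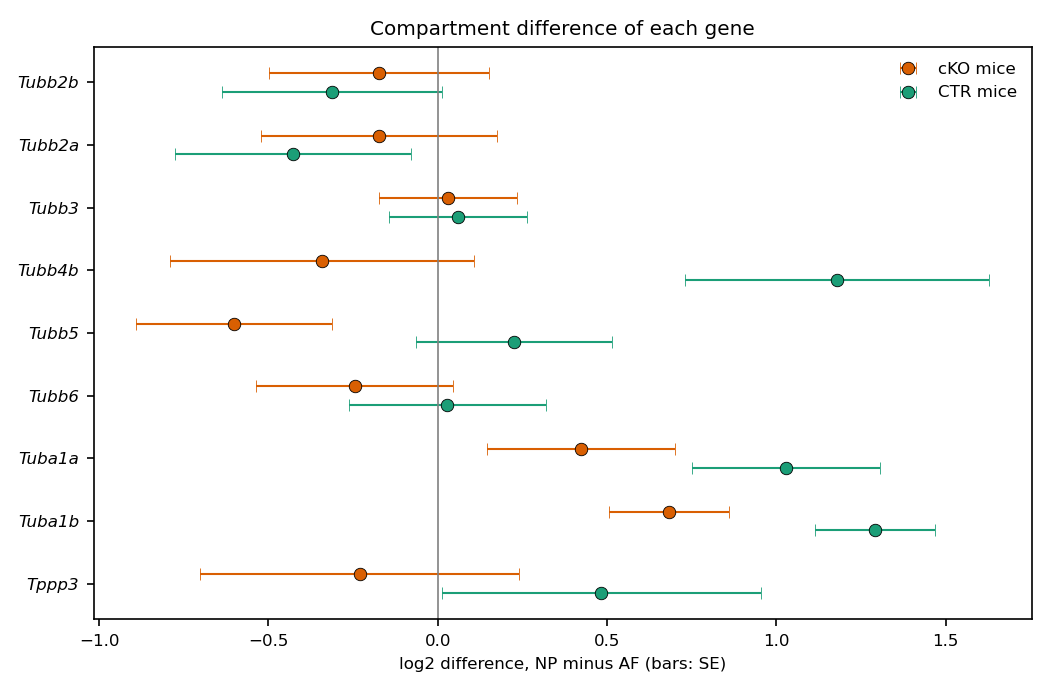
Difference of group means, NP minus AF, on the log2 scale (horizontal axis) for each gene (vertical axis), in cKO mice (orange, upper point) and CTR mice (green, lower point). Bars are the SE of the limma fit. Tuba1b lies right of 0 in both genotypes, Tuba1a and Tubb4b lie farther right in CTR than in cKO, and Tubb5 lies left of 0 in cKO.

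Tubb4b came next in the control comparison, with 10.94 ± 0.91 in NP CTR and 9.76 ± 0.59 in AF CTR (SD, n = 4 each). Its difference of 1.18 (SE 0.45, adjusted p = 0.0717) did not pass, but it did with each array centred on its median (1.31, adjusted p = 0.0451), without NP CTR replicate 2 (adjusted p = 0.0490) and without AF CTR replicate 2 (adjusted p = 0.0472). Over all 20 alternatives its limma adjusted p ran from 0.0451 to 0.221. In cKO mice the Tubb4b difference was -0.34 (SE 0.45, adjusted p = 0.604). Tubb5 was lower in NP than in AF in 4 of 4 cKO mice, with differences from -0.89 to -0.39 and a mean of -0.60 (SE 0.29, adjusted p = 0.132). That difference passed without AF cKO replicate 4 (-0.87, adjusted p = 0.0257) and without AF cKO replicates 2 and 4 (-0.97, adjusted p = 0.0427). Over all 20 alternatives it ran from -0.97 to -0.40, with a limma adjusted p from 0.0257 to 0.365. In CTR mice Tubb5 differed by 0.22 (SE 0.29, 95% interval -0.38 to 0.83). Tubb3 and Tubb6 had differences between compartments of -0.25 to 0.06, and neither passed.

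The promoter windows of the neighbours Tuba1a and Tuba1b are shown because both passed as higher in control NP. Both lie on the minus strand of chromosome 15, Tuba1a at chr15:98953452-98953751 and Tuba1b at chr15:98934341-98934640 (RefSeq, GRCm38.p6), and capitals mark CCAAT and GGGCGG on either strand.
Tuba1a: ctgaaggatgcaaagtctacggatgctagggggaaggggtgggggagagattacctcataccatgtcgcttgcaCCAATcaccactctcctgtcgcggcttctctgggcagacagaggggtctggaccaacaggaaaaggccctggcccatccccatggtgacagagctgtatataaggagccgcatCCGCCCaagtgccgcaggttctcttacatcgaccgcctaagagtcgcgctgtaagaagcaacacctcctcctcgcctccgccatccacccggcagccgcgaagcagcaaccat
Tuba1b: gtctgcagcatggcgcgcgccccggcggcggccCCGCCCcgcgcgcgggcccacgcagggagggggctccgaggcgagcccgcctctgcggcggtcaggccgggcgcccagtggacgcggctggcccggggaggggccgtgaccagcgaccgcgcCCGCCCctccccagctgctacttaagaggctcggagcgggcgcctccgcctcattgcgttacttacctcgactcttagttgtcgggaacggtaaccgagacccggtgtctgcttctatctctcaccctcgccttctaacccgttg
Tuba1a holds 1 CCAAT box and 1 GC box, and Tuba1b holds 2 GC boxes. CCAAT, absent from the Tuba1b window, was found in 37.4% of all windows. GC content was 59.0% for Tuba1a and 72.7% for Tuba1b, beside a median of 52.7% over all windows. Neither window held the TATA box letters or either of the Sox-type motifs.

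Outside the 9 members, 95 of 103 listed tubulin and microtubule genes were measured, and 0 passed for cKO against CTR in NP or in AF in limma. At an unadjusted p under 0.05 there were 8 in NP, 8.42% beside 4.58% of all probe sets, and 6 in AF, 6.32% beside 10.6%. The difference was positive for 44 of the 95 in NP and for 52 in AF, with medians of -0.05 and 0.03. The tubulin folding factors, chaperonin subunits, prefoldins and cofactors that fold and assemble tubulin, had 6 of 21 measured genes higher in NP cKO with a median of -0.13, and 17 of 21 higher in AF cKO with a median of 0.30, none passing. Tuba4a, an alpha tubulin, had 7.72, 8.20, 9.86 and 6.93 in AF cKO, against 7.24, 6.38, 6.40 and 5.41 in AF CTR, and did not pass (adjusted p = 0.171). Its AF CTR mean of 6.36 lies inside the range of the negative controls, so no exact difference is given.

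Between compartments, 12 of these 95 genes passed in CTR mice, 9 higher and 3 lower in NP, and 15 in cKO mice, 7 higher and 8 lower. These shares, 12.6% and 15.8%, lie below the 20.1% and 25.9% of all probe sets that passed. Atat1, the enzyme that acetylates alpha tubulin, was higher in NP by 0.95 in cKO (adjusted p = 0.0153) and by 1.70 in CTR mice (adjusted p = 2.0e-04). Agbl3, a tail-trimming carboxypeptidase, was higher in NP by 1.16 in cKO (adjusted p = 8.0e-04) and by 0.98 in CTR (adjusted p = 0.00307). Its AF signals, 6.58 to 6.87 in cKO and 6.15 to 6.76 in CTR, lay near the highest negative control median of 6.59. The size of these Agbl3 differences is therefore uncertain. Of the proteins that bind and stabilise microtubules, Map2, Mapt, Mapre3 and Clasp1 were higher in NP in both genotypes. Mapt, tau, differed by 0.81 in cKO (adjusted p = 0.0239) and by 1.08 in CTR (adjusted p = 0.00502), and Mapre3, an end-binding protein, by 0.87 in cKO (adjusted p = 0.0142) and by 1.10 in CTR (adjusted p = 0.00348). Dclk1, a doublecortin-like kinase, was higher in NP in CTR mice (adjusted p = 0.00165), with 7.94 in NP CTR and 6.57 in AF CTR, the second inside the range of the negative controls, so no exact difference is given. Mtus1, a microtubule-associated tumour suppressor, was lower in NP, with differences of -1.06 in cKO (adjusted p = 0.00431) and -1.57 in CTR mice (adjusted p = 1.8e-04).

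Among genes that passed as lower in cKO NP than in cKO AF, the alpha tubulin Tuba1c had 14.05 in NP cKO and 14.85 in AF cKO (difference -0.79, SE 0.19, adjusted p = 0.00490). Tuba4a differed by -1.44 (adjusted p = 0.0290), Map1b, a microtubule-associated protein of growing axons, by -1.03 (adjusted p = 0.00813), and Kif2a, a kinesin that removes tubulin from microtubule ends, by -0.74 (adjusted p = 0.0119). The Tuba4a mean in NP cKO, 6.73, lay near the negative controls, and its AF cKO values ran from 6.93 to 9.86, highest on replicate 3. In CTR mice Tuba4a did not pass in limma (adjusted p = 0.778), with both means inside the range of the negative controls. The gamma-tubulin complex gene Tubgcp5 differed by -0.99 (adjusted p = 0.0130), and Tbcel, a tubulin cofactor-like protein, by -0.69 (adjusted p = 0.0489). In NP cKO, Tubgcp5 ran from 6.34 to 7.29 and Tbcel from 6.26 to 6.90, near the highest negative control median of 6.59. The size of both differences is therefore uncertain. Map1a passed as lower with NP cKO at 5.71, below the negative controls, and AF cKO at 7.12. Tubal3 in cKO mice and Katnal2 in CTR mice passed with both groups below the highest negative control median, so no fold is given for them. In CTR mice, Tcp1, a chaperonin subunit, was higher in NP by 0.86 (adjusted p = 0.0238), Arl2, a regulator of tubulin folding, by 0.83 (adjusted p = 0.0327), and Katna1, the severing enzyme katanin, was lower with a difference of -0.69 (adjusted p = 0.0247).

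The genes most like Tubb2b were found by Pearson correlation over the 16 arrays among 9914 genes with means above the negative controls, as a description, since all arrays share the 4 groups. The highest were Kcnip3, a potassium channel-interacting calcium sensor (r = 0.91), Meltf, an iron-binding surface protein (0.89), Sox9 itself (0.88), the connexin Gjc3 (0.86) and the choline transporter-like Slc44a2 (0.85). Within groups, after removing each group's mean, these correlations were 0.55, 0.52, 0.28, 0.35 and 0.32 in the same order. The lowest were Il15ra (-0.74), Tpm1 (-0.73) and Rgs10 (-0.71), with -0.43, 0.18 and -0.16 within groups. Kcnip3 averaged 6.50, inside the range of the negative controls, in NP cKO and 9.95 in NP CTR, and 6.83 in AF cKO and 9.71 in AF CTR.

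For Tppp3 the highest were the tropomyosin Tpm1 (0.91), the helix-loop-helix inhibitor Id2 (0.85), the stress-response gene Nupr1 (0.84), the mitochondrial assembly factor Uqcc1 (0.84) and the matrix gene Fbln2 (0.83). Within groups they were 0.74, 0.75, 0.48, 0.58 and 0.85 in the same order. The lowest were Abcc5 (-0.80), Slc43a3 (-0.79) and Slc15a1 (-0.79), with -0.67, -0.46 and -0.41 within groups. Tpm1, an actin-binding protein, averaged 15.28 in NP cKO and 14.24 in NP CTR, and 15.16 in AF cKO and 13.96 in AF CTR.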

How the data were processed

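RNA of 16 disc samples was hybridised to 1-colour Affymetrix arrays, and targets were biotin-labelled with the GeneChip WT Plus chemistry, per the labels' protocols. The values are log2 signals that the authors deposited after sst-RMA normalization, per the labels, with Transcriptome Analysis Console, per the submitters' processing notes; its version and the genome build are not given in the sources used here. Filters on detection p, on an unadjusted p under 0.05 and on a fold of 1.75 appear in the labels, but the deposited table still holds probe sets that fail them. The table has 28846 probe sets; tests ran on the 22206 that are not among its 6640 controls, of which 19572 carry 1 gene symbol and 2634 none.

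Means of the 4 groups were fitted on the log2 values with limma 3.58.1 in R 4.3.3 (lmFit and eBayes, all 16 arrays sharing 1 estimate of the spread). P-values were adjusted by Benjamini-Hochberg over all 22206 probe sets, with calls at an adjusted p under 0.05. There were 5 comparisons: the genotype change (cKO minus CTR) in NP and in AF, the first of these minus the second, and the compartment difference (NP minus AF) in cKO and in CTR. The average of both genotype changes was added after seeing the data. No arrays or values were imputed, and the precision is limited by the number of arrays. Members and gene lists were chosen with earlier results of these data known. Named genes are the members, Sox9, listed genes that passed (at most 4 per list and comparison by p), those most and least correlated with Tubb2b and Tppp3, and Tuba4a in AF and single markers chosen after their values were seen.

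Same-coded NP and AF samples are from 1 animal. Across probe sets, the correlation between such a pair, after subtracting group means, ran from -0.293 to 0.348 and exceeded 0.1 in 3 of 8 animals. Alternatives were other normalizations, probe set filters, blocks for animal or replicate number, the thresholds of the labels, and leaving out arrays. Promoter windows are RefSeq's (GRCm38.p6), searched on both strands.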

Additional observations from a re-analysis of the deposited data

Results flagged for a closer look

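Of 36 groups of 4 arrays (9 genes in 4 groups), 3 held an array far from the other members of its group by Dixon's test at the 95% level, where chance gives about 1 in 20 groups. Tubb2b was 6.46 on AF cKO replicate 4, against 7.57, 7.61 and 7.61 on the other AF cKO arrays. Tubb4b was 11.60 on the same array, against 10.38, 10.41 and 10.40 on the others. Tuba1a was 13.35 on NP CTR replicate 2, against 14.44, 14.57 and 14.59 on the others. AF cKO replicate 4 also held skeletal muscle markers at a mean of 9.63, and the part of that signal in these values was not tested.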

How the results depend on the processing

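No called difference of a member changed sign. Of 1059 alternative values of the members, 1045 kept their side of the threshold or, where untested, moved by less than the SD between replicates, 13 passed only under the alternative and 1 lost its call (Tuba1b in NP against AF of cKO mice at the thresholds of the labels). The number of probe sets called in AF cKO against AF CTR, 22 in the fit reported, was 37 after a second quantile normalization, 774 at the thresholds of the labels, 8 with only the 8 AF arrays, 34 without AF cKO replicates 2 and 4 and 112 without AF CTR replicate 1 and AF cKO replicate 3. For NP cKO against NP CTR, 27 became 262 at the thresholds of the labels. The difference between compartments had 0 calls, 1 after the second quantile normalization and 977 at those thresholds, and the average over compartments had 69 and 307. With dim probe sets left out, which tests fewer genes, 2764 in place of 4462 passed between NP and AF in CTR mice and 3119 in place of 5754 in cKO mice, where 3800 passed without AF cKO replicates 2 and 4. Except where given, the cause was not tested. Leaving out single arrays gave 10 to 19 calls in NP, 12 to 142 in AF (the highest without AF CTR replicate 1), 0 to 3 for the difference between compartments, 49 to 117 for the average, 3552 to 4160 for NP against AF in CTR mice and 4074 to 5621 in cKO mice.

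With the replicate number as a block, 26 probe sets passed in NP, 20 in AF, 0 for the difference, 78 for the average, 4559 for NP against AF in CTR mice and 5993 in cKO mice, and the call it changed among the members was that of Tubb4b in NP CTR against AF CTR (adjusted p = 0.0488). Under the animal as a fixed block, 4175 and 5580 passed in CTR and cKO mice, and Tuba1a and Tuba1b kept their calls. At the thresholds of the labels Tubb2a also passed in both compartments, and Tubb4b for the difference between compartments and for NP CTR against AF CTR. In AF, Tubb2a passed after a second quantile normalization as well (-1.74, adjusted p = 0.0216). Tuba1a and Tuba1b kept their calls for NP CTR against AF CTR in all 20 alternatives, with an adjusted p of up to 0.0473 and 9.6e-04. A second probe set per gene could not be tried, since each member has 1. Signals near the negative controls, such as Tubb2b in cKO, limit how low a level can be read.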
